A study of Homo sapiens with 12 samples.

Results

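The genes described here are 9 receptor tyrosine kinase genes and 1 ligand gene of the kind that can carry growth and survival signals past a blocked BRAF kinase: AXL, TYRO3, MERTK, MET, IGF1R, INSR, FGFR1, PDGFRB and DDR2, with the ligand GAS6. They were taken by symbol from a list of such genes, and all 10 were found among the 33694 human gene identifiers listed. The study measured RNA in A375, a human melanoma cell line with an activating BRAF mutation, and in A375-BIR, its BRAF-inhibitor-resistant counterpart. A375-BIR with dabrafenib at 200 nM for 48 h (3 libraries) was set against A375-BIR with 0.1% DMSO (3 libraries), and A375 with dabrafenib at the same dose and time (3 libraries) against A375 with 0.1% DMSO. All cells grew in RPMI with serum, and dabrafenib is a kinase inhibitor of mutant BRAF. The labels call the libraries biological replicates and do not say how A375-BIR was derived or whether it is a clone.

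Receptor tyrosine kinases span the cell membrane, bind a ligand outside the cell and phosphorylate themselves and adaptor proteins inside it, which feeds the RAS to ERK and the PI3K to AKT cascades. In melanoma treated with BRAF inhibitors, such receptors are known as bypass routes, and a state with high AXL and low melanocyte lineage expression is a described form of resistance. AXL, TYRO3 and MERTK form the TAM family, whose ligands GAS6 and protein S bridge the receptors to phosphatidylserine on membranes.

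The promoters of AXL, MET and TYRO3 are shown because these receptors had the largest differences between the lines under dabrafenib among the 7 members with enough counts for the test, AXL and MET with more RNA in A375-BIR and TYRO3 with less. Each sequence is the RefSeq window of 300 bases on the plus strand of GRCh38.p14, from 250 bases before to 50 after a transcript start. AXL and TYRO3 have 2 such windows each, of which the one nearest to the gene start in GENCODE 29 is shown. That of TYRO3 lies inside the gene as GENCODE 29 places it. AXL lies at chr19:41218973-41219272, MET at chr7:116671946-116672245 and TYRO3 at chr15:41558962-41559261. Capitals mark matches to motifs searched on both strands.
AXL: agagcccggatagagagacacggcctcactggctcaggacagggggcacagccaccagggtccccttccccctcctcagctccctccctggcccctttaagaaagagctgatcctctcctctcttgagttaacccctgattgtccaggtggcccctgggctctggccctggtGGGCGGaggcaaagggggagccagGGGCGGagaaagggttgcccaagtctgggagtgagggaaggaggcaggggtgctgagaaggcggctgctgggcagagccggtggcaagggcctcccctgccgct
MET: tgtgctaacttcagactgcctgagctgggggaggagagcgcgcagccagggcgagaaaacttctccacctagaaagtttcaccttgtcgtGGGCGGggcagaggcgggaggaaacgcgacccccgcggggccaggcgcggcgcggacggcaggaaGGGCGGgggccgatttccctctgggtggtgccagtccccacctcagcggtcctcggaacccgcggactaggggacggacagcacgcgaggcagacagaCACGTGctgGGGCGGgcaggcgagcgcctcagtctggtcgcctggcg
TYRO3: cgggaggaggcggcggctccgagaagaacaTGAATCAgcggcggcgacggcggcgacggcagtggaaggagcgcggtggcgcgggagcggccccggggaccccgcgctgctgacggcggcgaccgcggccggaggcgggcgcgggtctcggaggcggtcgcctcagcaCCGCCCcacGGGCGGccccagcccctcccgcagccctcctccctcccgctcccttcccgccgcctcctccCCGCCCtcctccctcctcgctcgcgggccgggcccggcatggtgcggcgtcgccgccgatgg
The letters GGGCGG (a GC box, bound by SP factors) were found at 2 positions in the AXL window, 3 in the MET window and 3 in the TYRO3 window, and in 44.89% of the 34796 promoter windows of the genome. The AP-1 letters TGANTCA were found once, in TYRO3, and are in 7.725% of windows. The E-box letters CACGTG were found once, in MET, and are in 7.205% of windows. The TEAD letters CATTCC, in 14.042% of windows, were in none of the 3. The marked matches do not overlap. The windows of AXL, MET and TYRO3 had a GC content of 66.0%, 69.3% and 80.3%.

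Of the 12 libraries deposited, 10 list human genes, and A375 DMSO entered with 1 of them, because the files of its replicates 2 and 3 list mouse identifiers. The stamp in the file name of that library is not the one shared by the other 9. What this file stamp marks is not stated in the sources used here. File stamp and group therefore cannot be told apart wherever A375 DMSO is compared, and its spread is the one pooled over the remaining groups. Gene counts ranged from 198690 (A375 DAB replicate 3) to 1999840 (A375 DMSO), and a count of 0 allows up to 1.50 to 15.1 CPM in a library (3 counts of its raw total, counting error only). The 3 A375-BIR DAB libraries differed from each other more than those of the other groups did, with a chi-square per degree of freedom of 4.26 to 4.89 between pairs, against 1.29 to 1.74 in A375-BIR DMSO and 1.09 to 2.45 in A375 DAB. The mitochondrial share of counts was 4.88% to 7.21% in A375-BIR DAB, 4.63% to 5.49% in A375-BIR DMSO, 10.7% to 15.1% in A375 DAB and 15.1% in A375 DMSO. The melanocyte lineage markers MITF and SOX10 were counted in every library, while the pigment gene MLANA had at most 1 count in any. Summed over 9 such markers, the level was 243 to 334 CPM in A375-BIR DAB, 209 to 224 CPM in A375-BIR DMSO, 2888 to 3405 CPM in A375 DAB and 1460 CPM in A375 DMSO. DCT (mean 1746 CPM, against 16.3 CPM in A375-BIR DAB) and SOX10 (962 against 53.8 CPM) made up most of the A375 DAB sum. MITF overlapped, at 160 to 212 CPM in A375-BIR DAB and 209 to 316 CPM in A375 DAB, as did PAX3. The part of the lineage difference and of the mitochondrial difference in the results below was not tested. Levels are CPM, counts scaled to a common library total by TMM. Each transcript gives about 1 tag near its 3′ end in this kind of library, so levels of different genes are not divided by length.

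Under dabrafenib, most of the receptors that could be tested differed between the lines. In A375-BIR with dabrafenib against A375 with dabrafenib, both with the same file stamp, AXL, MET, FGFR1 and INSR were higher and TYRO3 and IGF1R lower. DDR2 did not pass the test. GAS6, MERTK and PDGFRB had too few counts for the test. Thus 6 of the 7 tested members, 4 higher and 2 lower, were called by edgeR's quasi-likelihood test at an adjusted p under 0.05. The same rule called 42.7% of all 10236 genes tested, 22.6% as higher and 20.2% as lower. The median log2 difference over the 7 members was 1.15, against 0.04 over all genes tested. That median is the value of INSR, whose call was lost under some settings. The members were chosen with earlier results of these data known, so the median is not read as a shift of the set. In bulk RNA, a smaller share of cells that express a gene and less RNA per cell cannot be told apart.

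**Figure D1:**
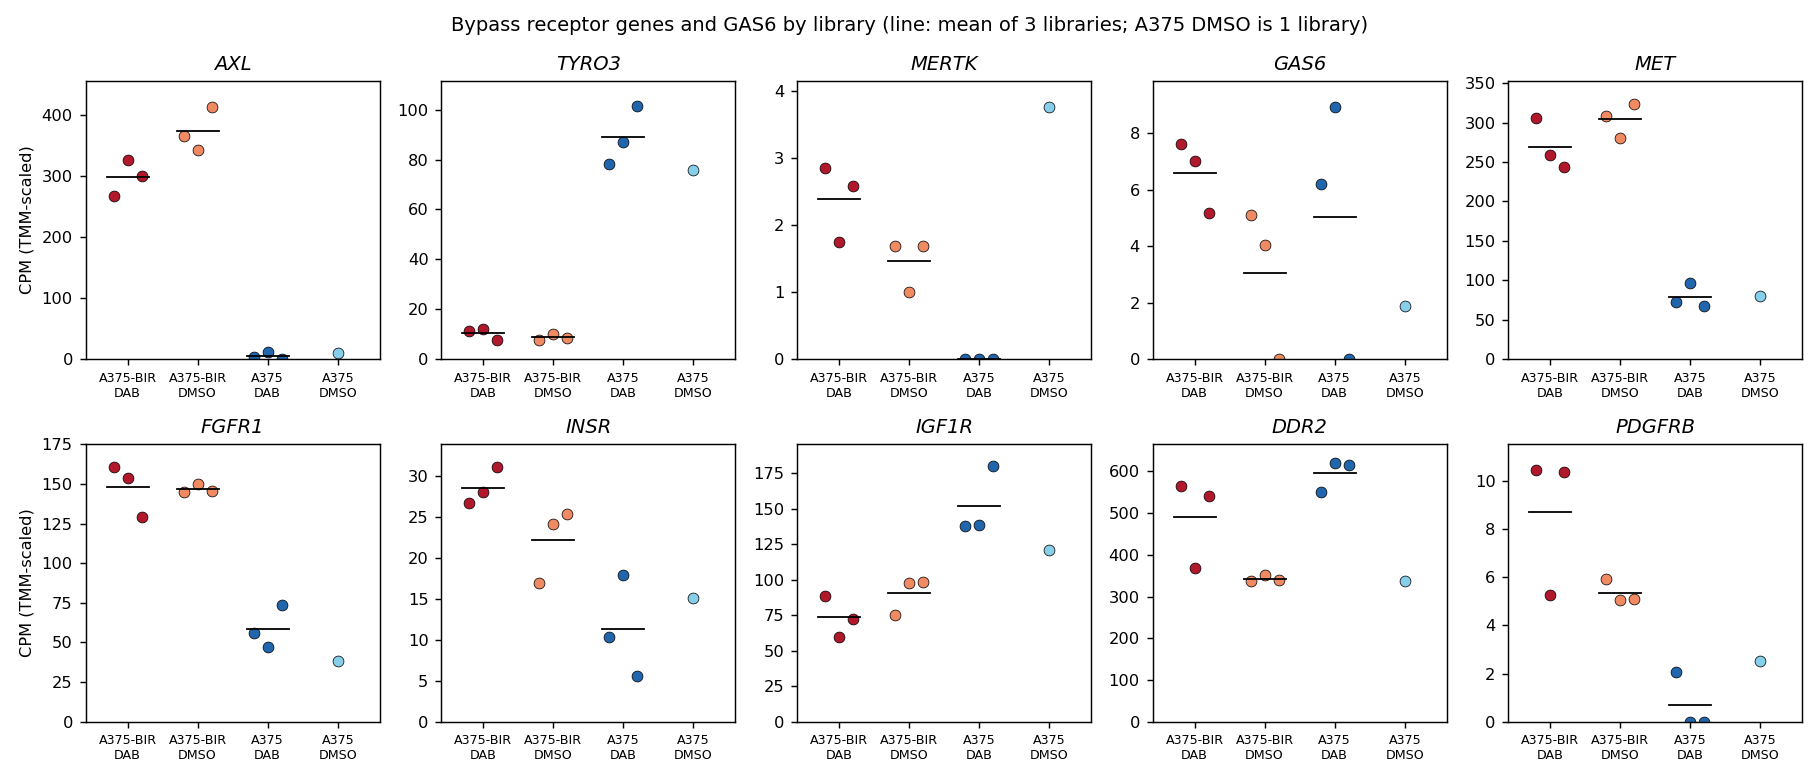
Level of each of the 10 genes in every library, in CPM on TMM-scaled totals (linear axes that start at 0, a separate scale per gene), with a line at the mean of 3 libraries; A375 DMSO is 1 library. AXL, MET and FGFR1 are higher in all 6 A375-BIR libraries than in all 4 A375 libraries, and TYRO3 and IGF1R are lower in all 6.

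AXL (ENSG00000167601, chromosome 19, 41219203 to 41261766, plus strand) had the largest difference among the members tested. It stood at 268, 325 and 300.2 CPM in A375-BIR DAB, against 4.12, 11.2 and 0 CPM in A375 DAB. Every A375-BIR library exceeded every A375 library, and the A375 DAB values rest on 2, 5 and 0 counts. The means were 298 ± 29.0 CPM in A375-BIR DAB and 5.09 ± 5.64 CPM in A375 DAB (SD, n = 3 each), a log2 difference of 5.52 (SE 0.33, edgeR adjusted p = 2.77e-16). The summed counts, 583 in A375-BIR DAB against 7 in A375 DAB, gave a ratio of 46.0 with a 95% exact counting interval of 22.2 to 115. Without A375 DAB replicate 2, which holds 5 of the 7 counts, the log2 difference was 6.54. A gene on the opposite strand that overlaps AXL, AC011510.1, had 0 counts in all libraries.

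In A375-BIR, AXL was not called between dabrafenib and DMSO. The 3 A375-BIR DAB libraries (268 to 325 CPM) lay below the 365, 342 and 413 CPM of A375-BIR DMSO (mean 373 ± 36.4, SD, n = 3). The groups did not overlap, and the log2 difference of -0.33 (SE 0.16) had an edgeR adjusted p = 0.357. The mean of 5.09 CPM in A375 DAB stood beside 10.7 CPM (17 counts) in the single A375 DMSO library, with a log2 difference of -0.75 (SE 0.62, adjusted p = 0.35 by edgeR). When every library was thinned to the smallest total, that difference was 3.26, also not called (edgeR adjusted p = 0.394), so the order of these 2 groups is not settled. From high to low on all counts, the order was A375-BIR DMSO, A375-BIR DAB, A375 DMSO and A375 DAB, and within each line the neighbours did not pass the test. The gap lay between the lines: A375-BIR DMSO exceeded A375 DMSO by 5.10 (SE 0.35, edgeR adjusted p = 1.12e-14).

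TYRO3 (ENSG00000092445, chromosome 15, 41557675 to 41583586, plus strand) ran the other way from AXL, its family member. It stood at 11.4, 12.2 and 7.76 CPM in A375-BIR DAB, against 78.4, 87.0 and 102 CPM in A375 DAB. The groups did not overlap. The means were 10.5 ± 2.39 CPM in A375-BIR DAB and 89.0 ± 11.7 CPM in A375 DAB (SD, n = 3 each), a log2 difference of -2.97 (SE 0.31, edgeR adjusted p = 6.81e-10) or 7.81-fold lower. With DMSO, TYRO3 held 7.63, 10.1 and 8.46 CPM in the A375-BIR libraries, against 76.0 CPM in the A375 library, a difference of -3.10 (SE 0.32, edgeR adjusted p = 3.4e-10). Neither line passed the test between dabrafenib and DMSO (0.32, SE 0.42, in A375-BIR and 0.18, SE 0.27, in A375).

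MERTK (ENSG00000153208, chromosome 2, 111898479 to 112029561, plus strand), the third TAM receptor, stayed near the limit of detection. Its counts were 3, 1 and 1 in A375-BIR DAB, 2, 1 and 1 in A375-BIR DMSO, 0 in each A375 DAB library and 6 in A375 DMSO. At 0 counts over the 3 A375 DAB libraries, a level of up to 2.70 CPM would have gone undetected, which is above the 2.40 CPM mean of A375-BIR DAB. No difference in MERTK was detectable at this depth.

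As a share of all counts on the 3 TAM receptors, AXL made up 94.9% to 96.7% in A375-BIR DAB, 96.9% to 97.6% in A375-BIR DMSO, 0% to 11.4% in A375 DAB and 11.8% in A375 DMSO. TYRO3 took 2.50% to 4.05% in A375-BIR DAB, 2.00% to 2.86% in A375-BIR DMSO, 88.6% to 100% in A375 DAB and 84.0% in A375 DMSO. The shares of the lines did not overlap under either treatment. They rest on 120 to 296 counts in A375-BIR DAB and on 18 to 44 in A375 DAB. With 18 counts, the exact Clopper-Pearson 95% interval for an AXL share of 0% reaches 18.5%. The summed TAM level was 311 ± 28.8 CPM in A375-BIR DAB and 94.1 ± 10.2 CPM in A375 DAB (SD, n = 3 each).

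**Figure D2:**
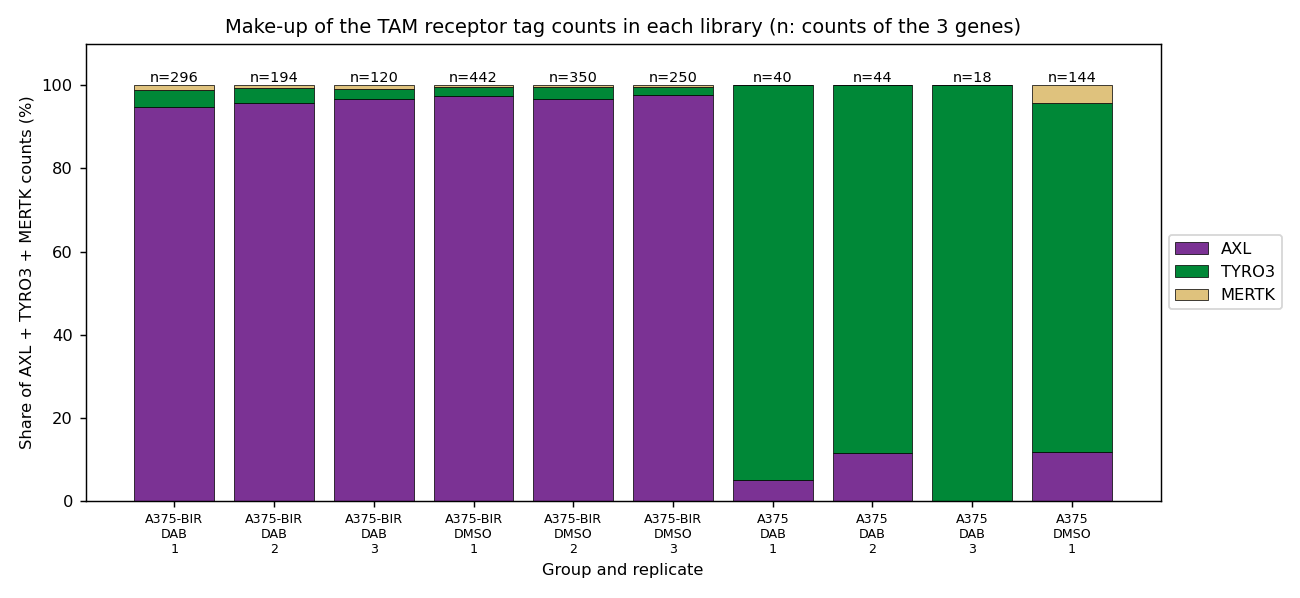
Share of AXL, TYRO3 and MERTK in the summed tag counts of the 3 TAM receptors, in percent, 1 bar per library, with the number of counts above each bar. AXL fills 94.9% to 97.6% of the bar in the 6 A375-BIR libraries, and TYRO3 fills 84.0% to 100% in the 4 A375 libraries.

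GAS6 (ENSG00000183087, chromosome 13, 113820549 to 113864067, minus strand) encodes a vitamin K-dependent ligand of all 3 TAM receptors. It had 8, 4 and 2 counts in A375-BIR DAB, 6, 4 and 0 in A375-BIR DMSO, 3, 4 and 0 in A375 DAB and 3 in A375 DMSO. The groups overlapped. The ratio of summed CPM between A375-BIR DAB and A375 DAB was 1.11, with a 95% counting interval of 0.418 to 3.24. GAS6-AS1, a gene on the opposite strand that overlaps GAS6, had 95 counts in A375-BIR DAB, 111 in A375-BIR DMSO, 22 in A375 DAB and 26 in A375 DMSO. The strand setting of the counting is not given in the sources used here, so reads of GAS6 and GAS6-AS1 cannot be told apart with certainty. PROS1 encodes protein S, the other TAM ligand. It stood at 44.7, 68.2 and 10.4 CPM in A375-BIR DAB, against 28.9, 8.93 and 5.64 CPM in A375 DAB. These groups overlapped through A375-BIR DAB replicate 3. The log2 difference was 1.37 (SE 0.49, edgeR adjusted p = 0.0252). The call ended without A375-BIR DAB replicate 1 (1.36) or 2 (1.01) or A375 DAB replicate 2 (0.98) or 3 (1.18), and the value was 2.44 without A375 DAB replicate 1.

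MET (ENSG00000105976, chromosome 7, 116672390 to 116798386, plus strand) encodes the receptor of hepatocyte growth factor. It stood at 306, 259 and 243 CPM in A375-BIR DAB, against 72.2, 96.0 and 67.7 CPM in A375 DAB. The lowest A375-BIR library was above the highest A375 library. The means were 269 ± 32.4 CPM in A375-BIR DAB and 78.6 ± 15.2 CPM in A375 DAB (SD, n = 3 each), a log2 difference of 1.75 (SE 0.20, edgeR adjusted p = 4.86e-09). With DMSO, MET held 308, 281 and 323 CPM in the A375-BIR libraries, against 79.7 CPM in the A375 library, a difference of 1.93 (SE 0.25, edgeR adjusted p = 5.25e-08). Within each line, the treatments were neighbours in level and did not pass the test, at -0.16 (SE 0.16) in A375-BIR and 0.01 (SE 0.27) in A375. HGF, the gene of the MET ligand, had 0 counts in all 10 libraries, which allows up to 1.49 CPM over A375-BIR DAB, 1.09 over A375-BIR DMSO, 2.70 over A375 DAB and 1.88 in A375 DMSO.

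FGFR1 (ENSG00000077782, chromosome 8) encodes a fibroblast growth factor receptor. It stood at 161, 154 and 129 CPM in A375-BIR DAB, against 55.7, 46.9 and 73.3 CPM in A375 DAB. The groups did not overlap, and the log2 difference was 1.43 (SE 0.22, edgeR adjusted p = 2.3e-06). With DMSO it held 145, 150.2 and 146 CPM in A375-BIR, within the range of the A375-BIR dabrafenib libraries, and 38.3 CPM in A375. The difference between the lines with DMSO was 1.94 (SE 0.27, edgeR adjusted p = 1.96e-07). When every library was thinned to the smallest total it was 1.25, at an edgeR adjusted p = 0.0501. In A375, dabrafenib against DMSO gave 0.53 (SE 0.31, edgeR adjusted p = 0.173). LETM2, which overlaps FGFR1 on the other strand, had 9 counts in A375-BIR DAB and 1 in A375 DAB, against 307 and 61 for FGFR1.

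IGF1R (ENSG00000140443, chromosome 15, 98648539 to 98964530, plus strand), the insulin-like growth factor receptor, was lower in A375-BIR under dabrafenib. It stood at 88.5, 59.5 and 72.5 CPM in A375-BIR DAB, against 138, 138 and 181 CPM in A375 DAB. The groups did not overlap, and the log2 difference was -0.97 (SE 0.21, edgeR adjusted p = 0.000362). With DMSO it held 75.4, 97.8 and 98.2 CPM in the A375-BIR libraries, against 121 CPM in the A375 library, a difference of -0.44 that did not pass (SE 0.24, edgeR adjusted p = 0.124). The order from high to low was A375 DAB, A375 DMSO, A375-BIR DMSO and A375-BIR DAB, and no pair of neighbours in it passed the test.

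INSR (ENSG00000171105, chromosome 19, 7112255 to 7294034, minus strand), the insulin receptor, differed in the opposite direction from IGF1R. It stood at 26.7, 28.0 and 31.1 CPM in A375-BIR DAB, against 10.3, 17.9 and 5.64 CPM in A375 DAB. The groups did not overlap, and the A375 DAB values rest on 5, 8 and 1 counts. The log2 difference of 1.15 (SE 0.42) had an edgeR adjusted p = 0.0256. This call was lost with DESeq2 (1.21, adjusted p = 0.0779) and without A375 DAB replicate 1 (0.97) or 3 (1.00 at edgeR adjusted p = 0.0675), so it rests on those libraries. With DMSO, INSR held 16.9, 24.2 and 25.4 CPM in the A375-BIR libraries, against 15.1 CPM in the A375 library, and the lines were not called apart (0.51, SE 0.39).

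DDR2 (ENSG00000162733, chromosome 1, 162631373 to 162787400, plus strand), a receptor for fibrillar collagen, was the receptor with the most counts of the 9 in both dabrafenib groups. It stood at 565, 369 and 541 CPM in A375-BIR DAB, 337, 352 and 340.3 CPM in A375-BIR DMSO, 551, 620.4 and 615 CPM in A375 DAB and 338 CPM in A375 DMSO. Both dabrafenib groups lay above their DMSO libraries without overlap, and with DMSO the mean was 343 CPM in A375-BIR beside 338 CPM in A375. In A375, dabrafenib against DMSO gave a log2 difference of 0.81 (SE 0.25, edgeR adjusted p = 0.00863), the 1 member called there. In A375-BIR it gave 0.52 (SE 0.17, edgeR adjusted p = 0.0972), which did not pass. Without A375-BIR DAB replicate 2, the lowest of its group, the A375-BIR value was 0.69 and passed (edgeR adjusted p = 0.00183). The difference between these 2 responses, -0.29 (SE 0.29), was not called (edgeR adjusted p = 0.503).

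PDGFRB (ENSG00000113721, chromosome 5, 150113837 to 150155872, minus strand), a platelet-derived growth factor receptor, was scarce everywhere. It had 11, 3 and 4 counts in A375-BIR DAB, 7, 5 and 3 in A375-BIR DMSO, 1, 0 and 0 in A375 DAB and 4 in A375 DMSO. The A375-BIR DAB libraries, at 5.25 to 10.5 CPM, did not overlap in CPM with those of A375 DAB. A count of 0 allows up to 6.47 CPM in A375 DAB replicate 2 and 15.1 CPM in replicate 3. Library by library, the lack of overlap thus lies within the limit of detection. Between A375-BIR DAB and A375 DAB, the ratio of summed CPM was 9.95 with a 95% counting interval of 1.57 to 415. It rests on 18 counts against 1. The interval lies above 1 but covers counting error only, not the spread between libraries. PDGFRB is also a marker of fibroblasts, a list of 9 genes that summed to 20.9 to 26.2 CPM in A375-BIR DAB and 28.2 to 39.2 CPM in A375 DAB. Of the other fibroblast markers, LUM had up to 11 counts (A375 DMSO), COL1A2 up to 9 (A375 DAB replicate 1) and COL1A1 up to 8 (A375 DMSO). FAP had up to 5 (A375 DAB replicate 2), and DCN, COL3A1, PDGFRA and THY1 had at most 2 in any library.

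Over the 9 receptors, the summed level was 1330 ± 112 CPM in A375-BIR DAB, 1296 ± 56.5 CPM in A375-BIR DMSO, 991 ± 70.0 CPM in A375 DAB and 686 CPM in A375 DMSO (SD, n = 3 except A375 DMSO). AXL took 22.6% ± 4.10 of this sum in A375-BIR DAB and 0.516% ± 0.551 in A375 DAB. MET took 20.3% ± 1.79 in A375-BIR DAB and 7.94% ± 1.47 in A375 DAB. DDR2 took 36.7% ± 5.48 in A375-BIR DAB and 60.1% ± 1.06 in A375 DAB. Thus AXL and MET together with DDR2 held most receptor counts in A375-BIR, and DDR2 alone held most in A375 under dabrafenib.

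Within each line, few members were called between 48 h of dabrafenib and DMSO. In A375-BIR DAB against A375-BIR DMSO, edgeR called 0 of 7 tested members, where it called 2.46% of all genes (1.36% higher and 1.1% lower). Of the 7, 1 (DDR2) had an unadjusted edgeR p under 0.05, and DESeq2 also called 0. The share of all genes at an unadjusted p under 0.05 is not given here, so such counts are not read against a background. The log2 differences ran from -0.33 (AXL) to 0.52 (DDR2), with a median of 0.03 against 0.02 over all genes. In A375 DAB against A375 DMSO, edgeR called 1 of 7 members, DDR2, where it called 38.6% of all genes (17.9% higher and 20.7% lower). The log2 differences ran from -0.75 (AXL) to 0.81 (DDR2). The difference between the responses of the lines was called for 0 of 7 members by edgeR and by DESeq2, against 22.6% of all genes by edgeR (12.7% positive and 9.87% negative), and no member had an unadjusted edgeR p under 0.05. These comparisons share libraries with each other, and those with A375 DMSO rest on its 1 library.

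With DMSO alone, A375-BIR against A375 gave 4 of 7 members called by edgeR, with 51.8% of all genes called (25.1% higher and 26.7% lower), so that the members' share is near the background. AXL (5.10), MET (1.93) and FGFR1 (1.94) were higher and TYRO3 (-3.10) lower. DDR2 differed by 0.02 (SE 0.23), IGF1R by -0.44 (SE 0.24) and INSR by 0.51 (SE 0.39), none of them called.

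**Figure D3:**
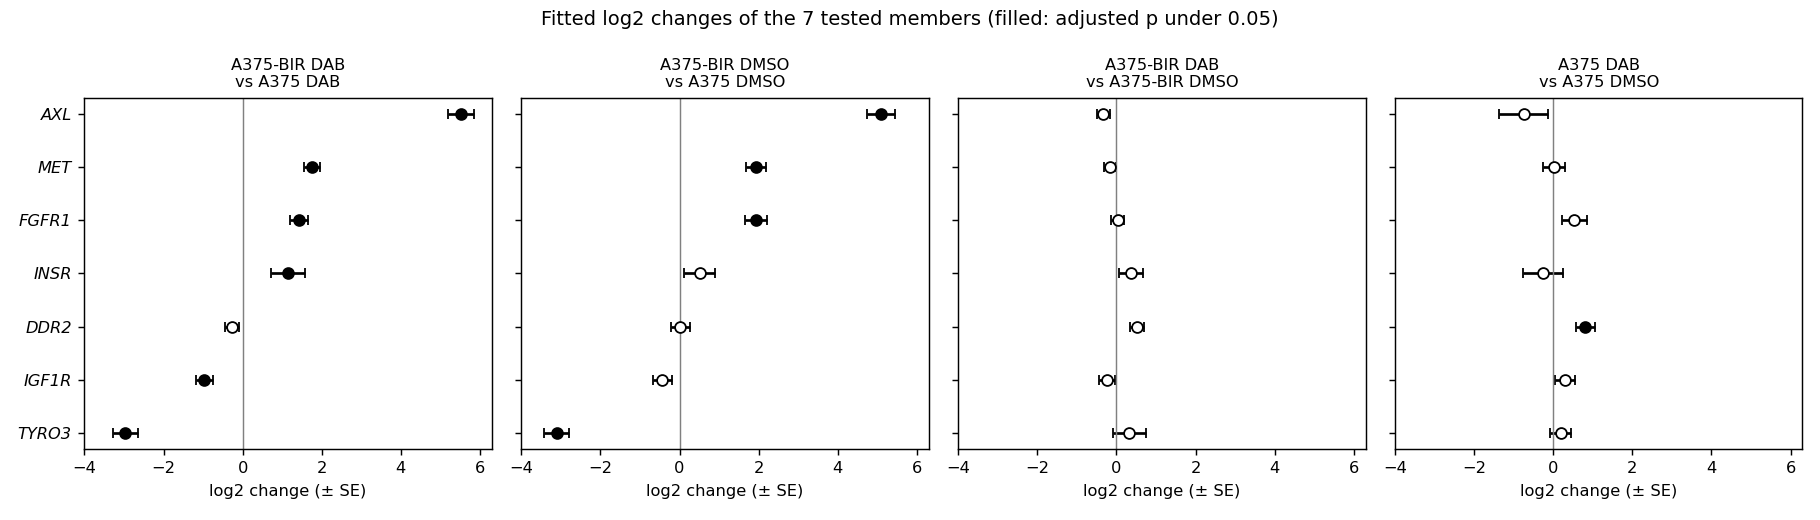
Fitted log2 difference of the 7 tested members in each comparison, with bars of 1 standard error and filled points at an edgeR adjusted p under 0.05. AXL, MET, FGFR1 and TYRO3 lie far from 0 in both comparisons between the lines, and DDR2 in A375 is the only filled point in the comparisons of dabrafenib with DMSO.

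Of 49 other receptor tyrosine kinases, 17 had enough counts for the test. Under dabrafenib, A375-BIR had 4 of them higher and 7 lower (42.7% of all genes tested were called, 22.6% higher and 20.2% lower), at a median log2 difference of 0.26. EGFR, the epidermal growth factor receptor, stood at 188, 250.2 and 209.6 CPM in A375-BIR DAB, against 4.12, 0 and 5.64 CPM in A375 DAB (3 counts in all). The groups were far apart, with a fitted log2 difference of 6.22 that was 6.92 without A375 DAB replicate 1 and 5.51 without replicate 2. The ratio of summed EGFR CPM was 77.6 (95% counting interval 26.4 to 378). EPHB2, an ephrin receptor, stood at 43.8, 40.2 and 77.6 CPM in A375-BIR DAB, against 2.06, 2.23 and 5.64 CPM in A375 DAB, on 3 counts in all. Its ratio was 18.2 with an interval of 6.06 to 90.0.

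Of the receptors that were lower, ERBB3, the kinase-impaired partner of other ERBB receptors, averaged 18.8 ± 0.601 CPM in A375-BIR DAB and 187 ± 29.3 CPM in A375 DAB (-3.33). DDR1, the other collagen receptor of the DDR2 family, averaged 75.9 ± 5.23 CPM in A375-BIR DAB and 213 ± 1.26 CPM in A375 DAB (-1.48, SE 0.19). FLT1, a receptor for vascular endothelial growth factor, stood at 3.30 ± 0.634 CPM in A375-BIR DAB and 46.8 ± 14.1 CPM in A375 DAB (-3.78, SE 0.48). The ephrin receptor EPHA3 had -3.39 (SE 0.48), or -2.77 without A375-BIR DAB replicate 1. These 6 genes were named because they had the smallest p in their list in this comparison. In A375-BIR DAB against A375-BIR DMSO, edgeR called 0 of the 17 tested, DESeq2 also 0. An unadjusted edgeR p under 0.05 was found for 3 (ROR1, TIE1 and DDR1, named after their values were seen). The share of all genes at that unadjusted threshold is not given here, so the 3 are not read against a background. The median was 0.24.

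Genes from the ligand families of the member receptors formed a list of 26 genes, besides GAS6, of which 6 had enough counts. The list goes by family, so a gene on it, such as PDGFA or PDGFC, need not encode a ligand of a member. Under dabrafenib, 4 were higher and 1 lower in A375-BIR than in A375, where 42.7% of all genes were called, with a median of 1.28. FGF2, a ligand of FGFR1, stood at 64.7, 87.5 and 51.8 CPM in A375-BIR DAB, 35.6, 43.3 and 28.8 CPM in A375-BIR DMSO and 28.9, 20.1 and 33.8 CPM in A375 DAB. It did not overlap between A375-BIR DAB and either other group. Its log2 differences were 1.38 (SE 0.31, edgeR adjusted p = 0.000402) against A375 DAB and 0.90 (SE 0.24, edgeR adjusted p = 0.0285) against A375-BIR DMSO. The second call was lost with DESeq2 and without any A375-BIR DMSO replicate or A375-BIR DAB replicate 2 (0.72 to 1.06 without 1 of them).

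COL5A1, a fibrillar collagen gene, stood at 101, 96.2 and 111 CPM in A375-BIR DAB, 65.2, 46.4 and 54.2 CPM in A375-BIR DMSO and 2.06, 2.23 and 0 CPM in A375 DAB. The groups did not overlap. The ratio between A375-BIR DAB and A375 DAB was 56.4 (95% counting interval 15.4 to 469), on 2 counts in A375 DAB. Against A375-BIR DMSO the log2 difference was 0.87 (SE 0.20, edgeR adjusted p = 0.0111), a call lost with DESeq2 (adjusted p = 0.088) and without A375-BIR DMSO replicate 2 (0.75) or 3 (0.86). COL1A2, another fibrillar collagen gene, had 1 count in A375-BIR DAB against 16 in A375 DAB, a ratio of 0.0345 (0.000824 to 0.222). PDGFC, which encodes a platelet-derived growth factor, averaged 81.1 ± 15.0 CPM in A375-BIR DAB and 35.3 ± 10.1 CPM in A375 DAB (1.18, SE 0.27).

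Of 32 adaptors and relays below the receptors, 29 were tested. In A375-BIR DAB against A375 DAB, 4 were higher and 11 lower, with a median of -0.43, and the 15 called are a share near the 42.7% of all genes. IRS2, the docking protein of the insulin and IGF receptors, stood at 107, 234 and 124 CPM in A375-BIR DAB, against 1984, 1966 and 1687 CPM in A375 DAB. The groups were far apart, at a log2 difference of -3.62 (SE 0.22, edgeR adjusted p = 6.87e-16). The A375 DMSO library held 397 CPM of IRS2. GAB2, a docking protein used by MET and other receptors, had a log2 difference between the lines of -1.21, the kinase FYN of -0.99, STAT3, a transcription factor below cytokine and growth factor receptors, of -0.95 and the adaptor NCK2 of -1.54. In A375-BIR DAB against A375-BIR DMSO, 1 of the 29 was called. That was VAV2, a guanine nucleotide exchange factor, at 17.6 ± 0.495 CPM in A375-BIR DAB and 5.63 ± 0.987 CPM in A375-BIR DMSO (1.65, SE 0.45, edgeR adjusted p = 0.0338). The VAV2 call was lost without 5 of the 6 libraries of these groups in turn, A375-BIR DAB replicate 2 being the exception (1.58 to 1.75 without any of those 5). It was also lost with the replicate block (edgeR adjusted p = 0.0517) and in a fit of the compared groups only (edgeR adjusted p = 0.0503), and DESeq2 and thinning called 0 of the list.

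Of 30 genes that restrain or shed receptors, 25 were tested, and 5 were higher and 8 lower in A375-BIR DAB than in A375 DAB (median 0.07), again a share near the 42.7% of all genes. TIMP3, an inhibitor of the proteases that shed receptors, stood at 71.4, 80.5 and 49.2 CPM in A375-BIR DAB, against 382, 413 and 429 CPM in A375 DAB, without overlap (-2.56, SE 0.19). DUSP6, the ERK phosphatase, averaged 138 ± 50.3 CPM in A375-BIR DAB and 27.1 ± 6.53 CPM in A375 DAB (2.40, SE 0.29). PTPRF, a receptor-type tyrosine phosphatase, had 2.36 (SE 0.27), PTPN2, a tyrosine phosphatase, 1.80 (SE 0.34), and CBL, a ubiquitin ligase that marks activated receptors for degradation, 1.11 (SE 0.22). GRB10, an adaptor that restrains insulin and IGF receptor signalling, had -1.88 (SE 0.31). In A375-BIR DAB against A375-BIR DMSO, 1 of 25 was called, TIMP3 at 0.83 (SE 0.22, edgeR adjusted p = 0.029). That call was lost with DESeq2 (adjusted p = 0.0591) and without any A375-BIR DMSO replicate or A375-BIR DAB replicate 1 (0.79 to 0.85).

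**Figure D4:**
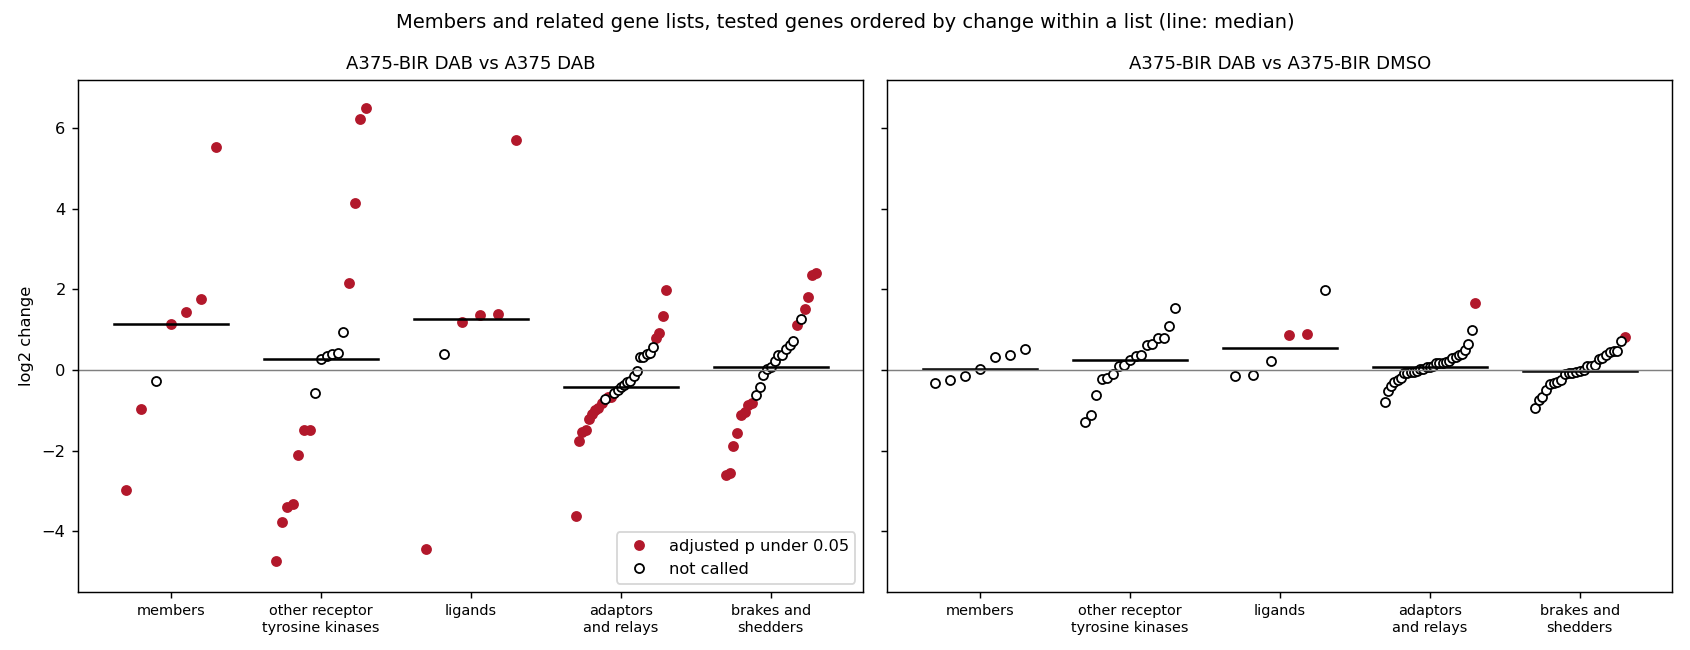
Fitted log2 differences of the tested genes of each list, ordered within the list, for both comparisons within the shared file stamp. Points are filled at an edgeR adjusted p under 0.05, and a line marks the list's median. Between the lines under dabrafenib, 6 of 7 members, 11 of 17 other receptor tyrosine kinases, 5 of 6 ligands, 15 of 29 adaptors and 13 of 25 brakes are filled, where 42.7% of all genes were called; between dabrafenib and DMSO in A375-BIR, 0, 0, 2, 1 and 1 are, where 2.46% of all genes were.

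Among 10177 tested genes with a level of at least 10 CPM in their highest group, the profile most like that of AXL over the 10 libraries was sought by the root mean square difference of log2(CPM + 1) values centred on each gene's mean. The closest were IGFBP4 (0.64), CCDC102B (0.70), NT5E (0.71) and TSPAN5 (0.74). IGFBP4, a secreted binding protein of insulin-like growth factors, averaged 172 ± 37.5 CPM in A375-BIR DAB and 4.29 ± 3.73 CPM in A375 DAB. NT5E, a surface nucleotidase, averaged 225 ± 25.8 CPM in A375-BIR DAB and 5.61 ± 6.27 CPM in A375 DAB. For MET the closest were SMC2 (0.14), WWC1 (0.16), HNRNPD (0.19) and DLAT (0.20). AXL and its neighbours had 0 to 6 counts in each A375 DAB library, and MET had 12 to 43, so the distances for AXL and MET are not compared. SMC2, a condensin subunit, averaged 336 ± 37.5 CPM in A375-BIR DAB and 100.2 ± 14.2 CPM in A375 DAB. These distances are a description over libraries that share line and file stamp.

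**Figure D5:**
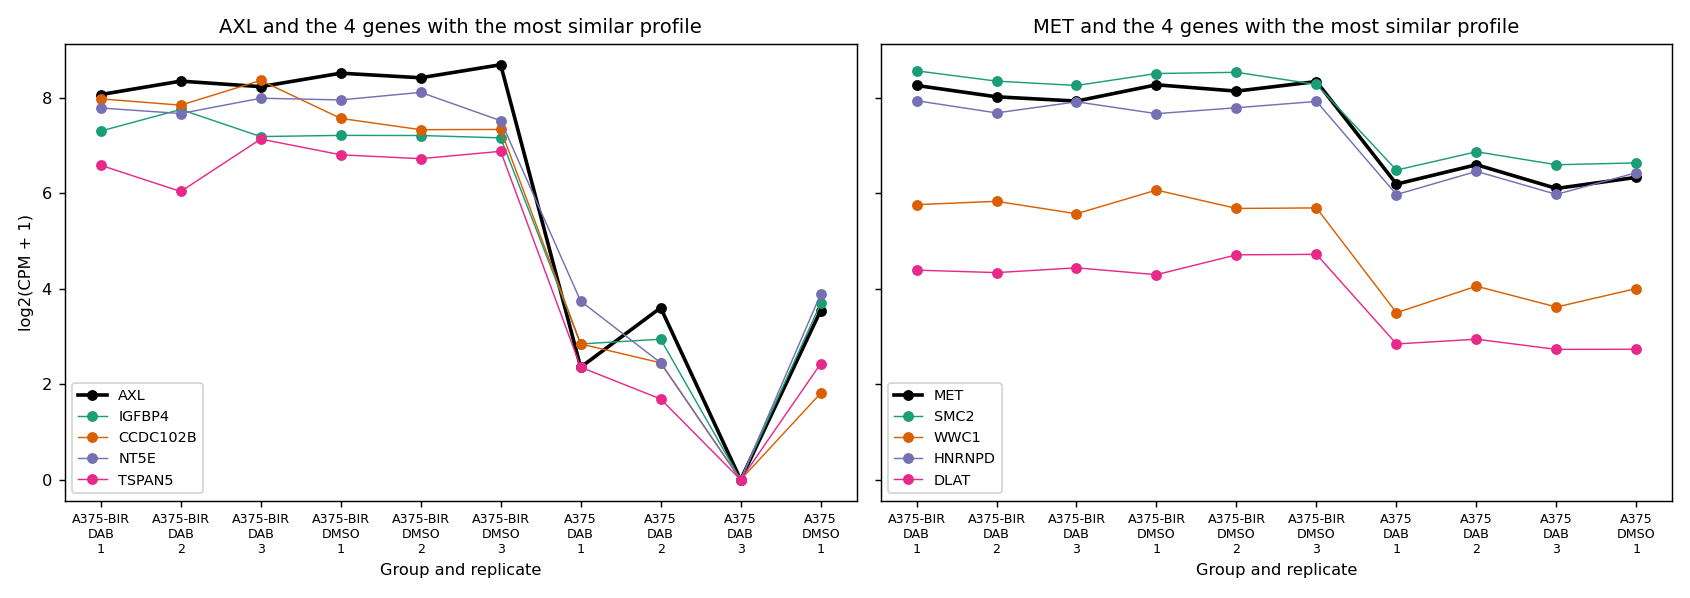
Level of AXL (left) and MET (right) in each library with the 4 genes of most similar profile, as log2(CPM + 1). The AXL panel falls to 0 for all 5 genes in A375 DAB replicate 3, the smallest library, and both panels separate the 6 A375-BIR libraries from the 4 A375 libraries.

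Markers of other cell types were read beside these levels. Of 6 leukocyte markers, CD68 was the one with more than 2 counts in any library. The 4 endothelial markers summed to at most 1.90 CPM in A375-BIR DAB, at most 1.01 CPM in A375-BIR DMSO, 0 in A375 DAB and 4.40 CPM in A375 DMSO. The 6 epithelial markers summed to 210 to 309 CPM in A375-BIR DAB, 279 to 323 CPM in A375-BIR DMSO, 10.3 to 24.5 CPM in A375 DAB and 98.6 CPM in A375 DMSO. KRT8 and KRT18 made up almost all of that sum in A375-BIR and in A375 DMSO. In A375 DAB, KRT18 had 0 counts and KRT8 had 2 to 10. EPCAM and KRT5 had 0 counts in every library, CDH1 had at most 4 in any and KRT14 at most 1. The part of this difference in the results was not tested.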

How the data were processed

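RNA of 12 libraries was made into 3′ tag libraries (QuantSeq FWD) and sequenced as single-end reads, per the labels' protocols. The deposited tables, 1 for each library, hold raw counts of reads by gene that the authors did not normalize. The submitters' processing notes name hg38 as the build. For the aligner, counter, annotation release and strandedness, the names were not given in the sources used here. The 5 closing lines of each table, which name no gene, were left out of every total and took 68.9% to 79.6% of the reads in the human tables. Of the 33694 identifiers, 32807 had a symbol in the reference names. Positions are those of GENCODE 29 (GRCh38), and promoter sequences are RefSeq's.

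The 10 human tables entered 1 fit over all 4 groups with edgeR 4.0.16 (R 4.3.3, limma 3.58.1): filterByExpr (minimum count 10), TMM scaling, the robust quasi-likelihood F test and Benjamini-Hochberg adjustment over all 10236 genes tested, with calls at an adjusted p under 0.05. Of the 12 libraries deposited, the 2 with mouse tables went into no comparison. Depth ranged from 198690 to 1999840 counts. Intervals on ratios of summed counts are exact at 95% and cover counting error only. The alternatives were DESeq2 1.42.0, RLE size factors, no filter, a mean count of at least 50, a replicate block, a fit of the compared groups only, thinning every library to the smallest total, and leaving out each library. The test was run on simulated counts with known changes, with the same spread set for every gene. The outcome of that run is not given here and is not used as support. The labels call the replicates biological without describing separate cultures, so p-values measure the spread between these libraries.

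The members and lists were chosen with earlier results of these data known. All 10 members are named, and of each list up to 6 called genes with the smallest p in each comparison within the shared file stamp. The values of 1 gene that this rule names are not reported here. For AXL and MET the 4 genes with the smallest profile distance are named. Marker lists covered melanocyte lineage, fibroblast, leukocyte, endothelial and epithelial genes.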

Additional observations from a re-analysis of the deposited data

Results flagged for a closer look

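Between the lines, the response to dabrafenib itself differed for 7 of the 24 pathway genes that the naming rule gives, by edgeR's test of that difference (the A375-BIR response minus the A375 response, on the log2 scale). EPHB2 had 3.23, VAV2 2.51, DUSP6 1.99, TIMP3 1.51, CBL 1.20 and GAB2 0.97, and IRS2 had -2.18. IRS2 averaged 155 CPM in A375-BIR DAB beside 147 CPM in A375-BIR DMSO, and 1879 CPM in A375 DAB beside 397 CPM in A375 DMSO. DUSP6 averaged 138 CPM in A375-BIR DAB beside 184 CPM in A375-BIR DMSO, and 27.1 CPM in A375 DAB beside 138 CPM in A375 DMSO. All 7 rest on the single A375 DMSO library, which has another file stamp, so that stamp and group cannot be told apart. The same test called 22.6% of all genes, and these genes were picked by their p in comparisons that share the A375-BIR DAB libraries, so the count is not read against that share. None of the 7 tested member genes was called in this way.

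The files of A375 DMSO replicates 2 and 3 hold counts on mouse gene identifiers, 224221 and 652439 in total, under labels that state human cells. They entered no comparison.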

How the results depend on the processing

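Over 35 member results, 522 of 536 values under other settings kept their direction and their side of the threshold, and 4 lost a call, 1 gained a call and 9 reversed. Over 27 results of named pathway genes, 408 of 438 did so, 30 lost the call and 0 reversed. Among the reversals, thinning gave AXL 3.26 in A375 DAB against A375 DMSO and -3.50 in the difference between the responses, and FGFR1 -0.067 and 0.20 in these. Without a filter, MET gave -0.069 in A375 DAB against A375 DMSO and DDR2 gave -0.0071 in A375-BIR DMSO against A375 DMSO. Without 1 library, MET ranged from -0.17 to 0.11 in the A375 response and from -0.29 to 0.0048 in the difference between the responses, and FGFR1 from -0.039 to 0.11 in the A375-BIR response. None of the reversed values was called, and the cause was not tested. The 6 called members in A375-BIR DAB against A375 DAB were 4 to 7 under other settings and 5 to 6 without 1 library. The 4 came with a mean count of at least 50, at which TYRO3 and INSR leave the test.

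Replicate numbers were taken as shared numbers only: deviations of same-numbered libraries correlated at -0.26 to 0.22, and not every library correlated best with its own number. With the replicate block, member calls were the same in number in every comparison, 0 adaptors in place of 1 were called in the A375-BIR response, and all other counts moved by less than 1.5 times (239 in place of 252 genes in the A375-BIR response).

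Counts of genes called moved by more than 1.5 times under several settings. A mean count of at least 50 left 1764 genes in A375-BIR DAB against A375 DAB, 137 in the A375-BIR response, 1669 in the A375 response, 1895 in A375-BIR DMSO against A375 DMSO and 1133 in the difference between the responses. That setting tests only genes with such a mean, so genes below it leave the test and are not calls that failed. Thinning left 2474, 69, 1417, 1806 and 560 in these 5 comparisons. DESeq2 called 106 in the A375-BIR response, 2485 in the A375 response and 1128 in the difference, and a fit of the compared groups called 125 in the A375-BIR response. Between the lines under dabrafenib, the mean count of 50 left 3 other receptor kinases, 0 ligands, 7 adaptors and 7 brakes called, thinning 7 other receptor kinases, 3 ligands and 9 adaptors, and the fit of the compared groups 7 other receptor kinases. With the mean count of 50, EGFR, ERBB3 and DDR1 were the only other receptor kinases tested. PDGFA, not called in the main fit, was the only ligand tested. In the A375-BIR response, the mean count of 50 gave 1 other receptor kinase, 0 ligands and 0 adaptors. There DESeq2 and thinning each called 0 ligands, 0 adaptors and 0 brakes, and the fit of the compared groups 1 ligand, 0 adaptors and 0 brakes.

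Without 1 library, the A375-BIR response had 106 to 558 genes, 0 to 1 members, 0 to 1 other receptor kinases, 0 to 2 ligands, 0 to 2 adaptors and 0 to 3 brakes called. The 558 came without A375-BIR DAB replicate 2, and 106, 140 and 107 without A375-BIR DMSO replicates 1, 2 and 3. Depth limits GAS6, MERTK, PDGFRB, AXL and INSR in A375 DAB, where each rests on 0 to 14 counts over the group.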
